A study of Mus musculus with 12 samples.

Results

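A set of 9 genes of cell junctions and cell adhesion were described in cDC1, the conventional dendritic cells of type 1, which present captured antigen to CD8 T cells. These are Cdh2, F11r, Cadm1, Tjp1, Cldn1, Ctnnb1, Icam1, Vcam1 and Alcam, 9 of 19938 genes measured. Cdh2 and F11r were chosen by their large lymph node over spleen difference in earlier results of these arrays, so their tissue values are given as a description without a test. No measured value is stated to have chosen the other 7, but all were named with earlier results known.

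The cells came from naive C57BL/6 mice, from the spleen or, as migratory cells, from lymph nodes that drain the skin, and their RNA was measured on 12 arrays, as 4 groups of 3. Every mouse was CD40fl/fl, with both Cd40 alleles flanked by loxP sites. The control groups were Xcr1+/+ and the Cre groups Xcr1Cre/+, a strain in which Cre is expressed from the Xcr1 gene to delete Cd40 in cDC1. The sort kept XCR1+ cells with high MHC class II that lacked B220 and Sirpa. Spleen cells were high for CD11c and the migratory cells of the lymph node intermediate. Organ, migratory state and CD11c gate therefore change together and cannot be told apart. The labels give no age, and they do not say whether arrays of a group are separate animals, so p-values measure the spread between these arrays only. In such sorted bulk RNA, fewer cells of a type and less RNA per cell cannot be told apart either.

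Cadherins join like cells through their outer domains and are anchored to actin by catenins. N-cadherin (Cdh2) is best known from neurons, muscle and mesenchymal cells. Tight junctions are built from claudins and junctional adhesion molecules held by ZO scaffold proteins, and dendritic cells in epithelia can carry such proteins. ICAM-1 and VCAM-1 are ligands of T cell integrins, ALCAM binds CD6 on T cells, and CADM1, widely used to identify cDC1, binds CRTAM on activated CD8 T and NK cells.

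The start regions of 3 genes that were higher in lymph node are shown because the letters upstream of their starts can be compared with a fixed set of motifs. The RefSeq promoter table (GRCm38.p6) held 6 of the 9 genes: F11r, Tjp1, Icam1, Ctnnb1, Cldn1 and Alcam. The 250 bases before the start are printed 5′ to 3′ on the gene's strand. They are chr1:171437311-171437560 on the plus strand for F11r, chr9:21015690-21015939 on the plus strand for Icam1, and chr16:26371840-26372089 on the minus strand for Cldn1. Capitals mark motif matches.
F11r: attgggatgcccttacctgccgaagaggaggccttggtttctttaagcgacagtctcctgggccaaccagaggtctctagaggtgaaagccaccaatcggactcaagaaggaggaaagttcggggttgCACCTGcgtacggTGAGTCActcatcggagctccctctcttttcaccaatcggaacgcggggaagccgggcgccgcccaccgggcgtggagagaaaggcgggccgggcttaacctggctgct
Icam1: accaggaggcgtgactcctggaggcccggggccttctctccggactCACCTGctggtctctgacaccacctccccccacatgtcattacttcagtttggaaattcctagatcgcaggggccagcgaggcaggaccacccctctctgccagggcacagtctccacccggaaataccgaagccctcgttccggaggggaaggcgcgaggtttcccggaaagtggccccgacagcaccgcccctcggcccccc
Cldn1: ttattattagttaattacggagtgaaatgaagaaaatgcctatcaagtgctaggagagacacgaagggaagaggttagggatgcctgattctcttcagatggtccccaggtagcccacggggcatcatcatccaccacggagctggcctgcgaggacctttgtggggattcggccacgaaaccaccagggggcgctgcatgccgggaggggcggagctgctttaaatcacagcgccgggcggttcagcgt
The motifs searched, on both strands, were the E-box CAGGTG (bound by ZEB and Snail repressors and by E proteins), the AP-1 motif TGANTCA, the TCF/LEF core CTTTGA (bound by the partners of beta-catenin) and the NF-kB consensus. F11r had 1 E-box at position -122 relative to its start and 1 AP-1 match at -109, with no overlap. Icam1 had 1 E-box at -204, and Alcam 1 at -40. Icam1 had no NF-kB match, but the search took only full matches to GGGRNWYYCC (R is A or G, W is A or T, Y is C or T, N any base). The Icam1 window holds tggaaattcc, which departs from that consensus only in its first letter and so was not counted. Cldn1, Tjp1 and Ctnnb1 had no match in this window. Of 32851 windows of this length in the table, 17.2% held the E-box, 6.75% AP-1, 13.8% TCF/LEF and 3.90% NF-kB. These are matches of letters and not measured sites.

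Intensities are the deposited RMA values on the linear scale, and differences are in log2. A level of 22.2, the highest of 3 measured Y-linked genes on any array, was taken as background. Median intensities per array ran from 66.1 to 74.4. The first principal component, with 79.4% of the variance, parted the tissues, and the second, with 11.2%, set the arrays numbered 1 apart. Cd40, the targeted gene, was lower on the Cre array for the pairs numbered 1 and 2 (ratios of 0.638 and 0.407 in spleen, 0.668 and 0.5 in lymph node) but higher for number 3 (1.84 and 2.18). The genotype is therefore given as a label, and directions drawn from it rest on the labels. Of 14 cDC1 markers, 9 were lower and 2 higher in lymph node on the arrays labelled control (limma, adjusted p under 0.05). Over all genes 13.2% were lower and 12.9% higher in that comparison. The sort marker Xcr1 ran from 1945 to 3508 in spleen and from 203 to 286 in lymph node, and Irf8, which cDC1 require, from 3611 to 5870 and from 3385 to 4671.

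**Figure D1:**
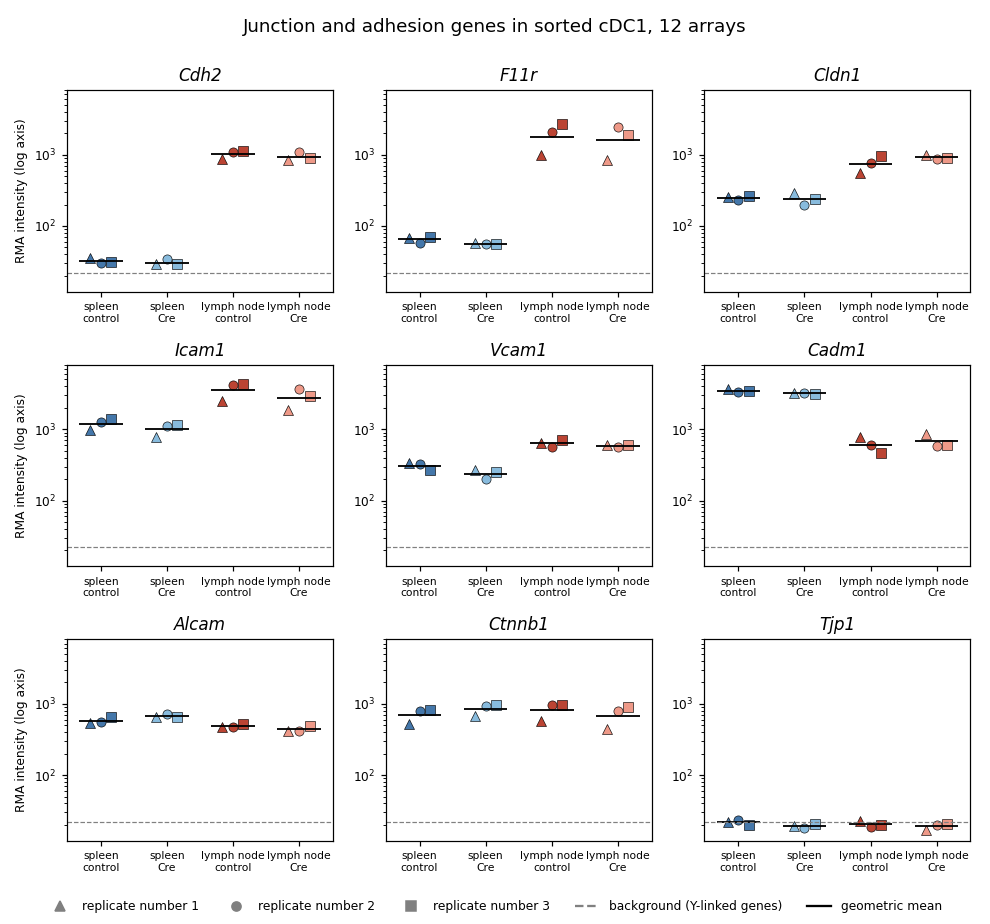
Intensity (log axis) of the 9 genes on each of the 12 arrays, by tissue and genotype label; symbols give the replicate number, black lines the geometric mean of 3 arrays and the dashed line the background of 22.2. Cdh2 and F11r lie apart between tissues, Cadm1 lies lower in lymph node, and Tjp1 stays near the dashed line in all 4 groups.

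Cdh2, the gene of N-cadherin, went from a level close to background in spleen to a clear signal in lymph node. Its intensity was 35.5, 30.2 and 31.5 in spleen under control labels and 28.8, 33.9 and 28.9 under Cre labels, for numbers 1, 2 and 3. The lymph node arrays gave 859, 1090 and 1116 with control labels, and 847, 1095 and 900.2 with Cre labels. The tissues did not overlap, and the lowest lymph node array stood far above the highest spleen array. The log2 difference was 4.97 under control labels and 4.95 under Cre labels, a ratio of geometric means of 31.4 and 30.9. These ratios stand on a spleen signal close to background, and with an offset of 16 added to each intensity the log2 difference was 4.41 and 4.37. Same-numbered arrays gave ratios of 24.2 to 36.1. The mean of the 6 spleen arrays, 31.5, was above that of 79.6% of 1027 olfactory receptor genes and below their 95th percentile of 56.3, so the spleen signal lay within the range of genes not known from dendritic cells.

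F11r encodes JAM-A, a junctional adhesion molecule of epithelium, endothelium and leukocytes. Its intensity in spleen was 68.8, 57.7 and 70.1 under control labels and 58.0, 55.0 and 55.9 under Cre labels. The lymph node values were 994, 2104 and 2740 under control labels and 854, 2468 and 1889 under Cre labels. All 6 lymph node arrays were above all 6 spleen arrays, and within lymph node both arrays numbered 1 were the lowest. The log2 difference was 4.78 and 4.82, a ratio of 27.4 and 28.2, the 7th largest rise under either label. Same-numbered ratios were 14.4 and 14.7 for number 1 and 33.8 to 44.8 for the others. Without the arrays numbered 1 the difference was 5.24 and 5.28. The mean of the 6 spleen arrays, 60.9, was above that of 96.1% of olfactory receptor genes, whose 95th percentile was 56.3. The F11r ratios therefore rest on a low spleen signal.

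The genes whose 12 arrays ran closest to those of Cdh2, by root mean square difference of centred log2 values, were Pygl (0.19), Mtss2 (0.23), Tmem150c (0.30), Mfge8 (0.30) and Slco5a1 (0.32). Pygl, the liver-type glycogen phosphorylase, ran from 41.3 to 61.3 in spleen and from 1023 to 1428 in lymph node. For F11r they were Tmem150c (0.27), Slc4a8 (0.33), Sema6d (0.33), Slco5a1 (0.34) and Fscn1 (0.35). Fscn1, the actin bundler fascin of mature dendritic cells, ran from 362 to 679 in spleen and from 6924 to 14213 in lymph node. F11r ranked 9th from Cdh2 and Cdh2 6th from F11r, at 0.37. All these genes share the tissue difference, which such a distance reads first.

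Among the other 7 genes, Cldn1, Icam1 and Vcam1 were higher in lymph node and Cadm1 lower under both labels, and Alcam was lower under Cre labels. Limma called 4 of 7 under control labels (3 higher, 1 lower), where 26.1% of all genes were called (12.9% higher, 13.2% lower). Under Cre labels it called 5 of 7 (3 higher, 2 lower), where 28.3% were (13.1% higher, 15.2% lower). With the replicate block it called 4 and 6 of 7, against 36.0% and 41.0% of all genes. At an unadjusted p under 0.05 there were 4 and 5 of 7, against 33.3% and 37.4%. Of all 9 genes, 5 lay wholly above and 2 wholly below spleen in each comparison, but Cdh2 and F11r, among the 5, were chosen for that rise. Over all genes, 19.0% lay above and 17.3% below under control labels, and 22.4% and 18.7% under Cre labels. The median of the 9 genes, 1.04 under control labels and 1.29 under Cre labels, includes the 2 picked genes and is raised by that choice. Among the other 7 the middle value was 0.22 under control labels (Ctnnb1) and -0.01 under Cre labels (Tjp1). Over all genes the medians were 0.03 and 0.07.

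**Figure D2:**
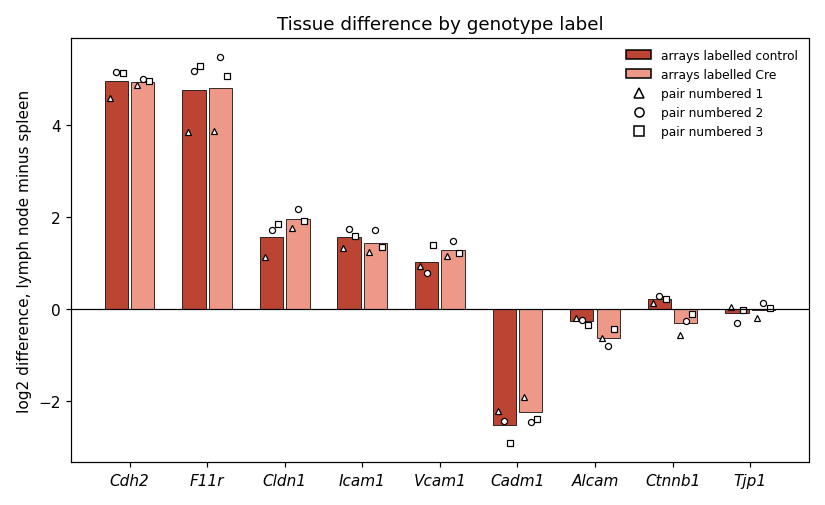
Log2 difference of lymph node minus spleen for the 9 genes; bars are group means (3 arrays against 3) by genotype label and open symbols the same-numbered pairs. Cdh2 and F11r reach 4.78 to 4.97, Cldn1, Icam1 and Vcam1 1.04 to 1.96, and Cadm1 falls to -2.25 and -2.53.

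Cldn1 encodes claudin-1, a sealing protein of tight junctions. Spleen arrays read 252, 230 and 264 under control labels and 286, 196 and 235 under Cre labels. Lymph node arrays read 556, 765 and 957 under control labels and 979, 881 and 896 under Cre labels. The tissues did not overlap, and the labels overlapped within each tissue. Cldn1 rose by 1.58 under control labels (SE 0.20, n = 3 per group, limma adjusted p = 2.89e-05) and by 1.96 under Cre labels (SE 0.20, limma adjusted p = 3.70e-06). All 6 same-numbered ratios were above 1, from 2.21 to 4.50.

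Tjp1, the gene of the scaffold ZO-1 that binds the tails of claudins and JAM-A, was near background throughout. Its intensity ran from a lowest value of 17.99 to 23.3 in spleen and up to 22.4 in lymph node, and only 1 spleen array and 1 lymph node array, both labelled control, exceeded 22.2. Limma did not call it in either tissue comparison (adjusted p = 0.629 and 0.954), and no fold is given. This probe set gave no measured level from which the presence of the scaffold could be judged.

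Of 31 measured tight junction genes, Cldn1 and Tjp1 counted and F11r left out, 4 rose and 1 fell under control labels. Under Cre labels 3 rose and 2 fell. That is 16.1% called under either label, against 26.1% and 28.3% of all genes. The medians were 0.01 and 0.06, against 0.03 and 0.07 over all genes. Esam, an adhesion molecule of the same family as JAM-A, rose by 1.87 and 1.63 (SE 0.31, limma adjusted p = 0.000384 and 0.00118). It read 67.1 to 96.4 in spleen and 166 to 461 in lymph node. Pard6g, a polarity protein, rose by 1.07 and 0.99 (limma adjusted p = 1.99e-06 and 3.71e-06), and Marveld2, tricellulin, fell (-0.90 and -0.89). Jam2 (-0.13 and 0.13), Jam3 (-0.01 and -0.05) and occludin (Ocln, 0.18 and 0.08), JAM-A's relatives and a further sealing protein, did not pass by limma, and their groups overlapped.

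Ctnnb1, beta-catenin, which binds cadherin tails and also carries Wnt signals, did not follow Cdh2. Its intensity in spleen was 519, 788 and 822 under control labels and 669, 947 and 969 under Cre labels. In lymph node it was 570, 964 and 959 under control labels and 450, 793 and 903 under Cre labels. The array numbered 1 was lowest in every group, and all 4 groups overlapped. The difference was 0.22 under control labels (SE 0.29, limma adjusted p = 0.706) and -0.31 under Cre labels (limma adjusted p = 0.472). With the replicate number as a block, the second was called (limma adjusted p = 0.0253) and the first was not (0.125).

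Of 22 measured catenins and cadherin partners, Ctnnb1 included, 4 rose and 4 fell under control labels (36.4% called, against 26.1% of all genes). Under Cre labels 2 rose and 5 fell (31.8%, against 28.3%), and the medians were 0.02 and 0.07. Ctnna1, alpha-catenin, which links the cadherin complex to actin, read 408 to 489 in spleen, 885, 1125 and 1375 in lymph node under control labels and 765, 1139 and 1062 under Cre labels. It rose by 1.32 and 1.11 (SE 0.19, limma adjusted p = 0.000108 and 0.000446). Afdn, afadin, which ties nectins to actin, rose by 0.59 and 0.70 (limma adjusted p = 0.0301 and 0.0105). Jup, plakoglobin, the closest relative of beta-catenin, rose by 0.89 under control labels (limma adjusted p = 0.0255) and was at 0.72 under Cre labels (0.0644, or 0.00278 with the replicate block). Ctnnd1, p120-catenin, was at 0.64 and 0.20 and did not pass by limma (adjusted p = 0.0554 and 0.565), although with the replicate block it passed under control labels (limma adjusted p = 0.00381). The actin regulators Vasp and Zyx fell (-0.84 and -0.81 under control labels, -0.72 and -0.86 under Cre labels), as did Ctnnbip1, an inhibitor of beta-catenin (-0.86 and -0.70).

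Of 26 measured cadherins other than Cdh2, 4 rose and 2 fell under control labels (23.1% called, against 26.1% of all genes) and 8 rose and 2 fell under Cre labels (38.5%, against 28.3%), with medians of 0.07 and 0.11. The largest rises were those of Pcdh7, a protocadherin (0.96 and 0.95), Clstn1, calsyntenin (0.93 and 0.87), and Cdh23 (0.54 and 0.68). Pcdh1 (-0.70 and -0.40) and Cdh17 (-0.35 and -0.48) fell. E-cadherin, Cdh1, rose by 0.35 and 0.64 (SE 0.12, limma adjusted p = 0.0484 and 0.000987), from 30.9 to 42.0 in spleen to 43.0 to 59.3 in lymph node. Several of these levels were low. Pcdh7 ran from 24.7 to 29.1 in spleen and from 41.8 to 79.0 in lymph node, and Cdh17 from 25.7 to 47.5 over all arrays. For comparison, the 95th percentile of the olfactory receptor means was 56.3, so such differences stand on weak signals.

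Genes known as regulators or targets around N-cadherin were taken from 2 further lists. Of 16 genes of the cadherin switch, 5 rose and 1 fell under control labels (37.5% called, against 26.1% of all genes). Under Cre labels 6 rose and 1 fell (43.8%, against 28.3%). Besides regulators, this list held Vim and Fn1, which are not regulators of the switch. Tcf3, an E protein, rose by 1.40 and 1.21, Vim, vimentin, by 1.21 and 1.12, and the repressor Zeb1 by 1.06 and 1.03 (limma adjusted p = 0.00267 and 0.00335), while Klf4 fell (-0.71 and -0.62). Of 35 genes of beta-catenin signalling, 7 rose and 5 fell under control labels (34.3% called) and 9 rose and 5 fell under Cre labels (40.0%). The ubiquitin ligases Rnf43 and Znrf3, which remove Wnt receptors and are themselves Wnt targets, rose by 1.35 and 1.14 under control labels and by 1.37 and 0.79 under Cre labels. Wnt11, a Wnt ligand, rose by 1.02 and 1.004. Fzd1, a Wnt receptor, fell (-1.84 and -2.15), and so did Myc (-1.49 and -1.19) and Ccnd1 (-1.25 and -1.35), targets shared with many pathways.

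Cadm1 fell. Spleen values were 3668, 3287 and 3475 under control labels and 3206, 3224 and 3160 under Cre labels. Lymph node values were 788, 604 and 461 under control labels and 853, 591 and 607 under Cre labels. No lymph node array reached the spleen range, and within lymph node the arrays numbered 1 were the highest. Cadm1 fell by 2.53 under control labels (SE 0.19, n = 3 per group, limma adjusted p = 3.00e-07) and by 2.25 under Cre labels (SE 0.19, limma adjusted p = 8.68e-07), so that spleen was 5.76 and 4.74 times lymph node.

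Of 12 measured nectins and nectin-like genes, Cadm1 included, 6 rose and 1 fell under control labels and 6 rose and 2 fell under Cre labels, where 12.9% and 13.1% of all genes rose and 13.2% and 15.2% fell, with medians of 0.14 and 0.32. Pvr, the poliovirus receptor that DNAM-1, TIGIT and CD96 bind, rose by 1.79 and 1.78 (SE 0.25, limma adjusted p = 7.61e-05 and 7.81e-05), from 534 to 735 in spleen to 1305 to 2637 in lymph node. Cadm3 rose by 0.72 and 0.74. Cd96, a receptor of T and NK cells, rose by 1.36 and 1.15. Of 7 measured T cell markers, 3 rose and 1 fell under control labels, and 3 rose and 2 fell under Cre labels. Their summed intensity was 827 to 865 (control) and 779 to 908 (Cre) in spleen and 852 to 1340 and 749 to 1559 in lymph node. None was at background in every array, a level that 85.8% to 90.3% of all genes exceeded on each array. Their part in the rise of Cd96 was not tested. Crtam, the receptor of CADM1, was at -0.16 and 0.24 and did not pass by limma (adjusted p = 0.456 and 0.194).

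Icam1 was higher in lymph node. Spleen intensities were 973, 1251 and 1404 under control labels and 788, 1112 and 1148 under Cre labels. Lymph node intensities were 2468, 4195 and 4265 under control labels and 1875, 3671 and 2945 under Cre labels. The array numbered 1 was lowest in every group, yet the tissues did not overlap. Icam1 rose by 1.56 under control labels (SE 0.27, n = 3 per group, limma adjusted p = 0.000501) and by 1.44 under Cre labels (SE 0.27, limma adjusted p = 0.000921). Same-numbered ratios were 2.38 to 3.35.

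The genes of the integrin that ICAM-1 binds moved against it. Itgal and Itgb2, the chains of LFA-1, both fell. Itgal was at -3.26 and -3.62 (SE 0.24, limma adjusted p = 2.08e-07 and 7.99e-08) and Itgb2 at -3.54 and -3.55 (SE 0.19, limma adjusted p = 1.17e-08 and 1.15e-08). Itgal ran from 733 to 1292 in spleen and from 67.2 to 117 in lymph node, and Itgb2 from 1498 to 1895 and from 122.8 to 186. Every lymph node array was below every spleen array for both chains.

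Vcam1, the ligand of the integrin VLA-4, was higher too. On spleen arrays it read 340, 324 and 267 under control labels and 269, 201 and 253 under Cre labels. The lymph node values were 649, 558 and 699.5 under control labels and 599.5, 563.5 and 592 under Cre labels. The tissues did not overlap, and the labels overlapped in each. Vcam1 rose by 1.04 under control labels (SE 0.16, limma adjusted p = 0.000183) and by 1.29 under Cre labels (SE 0.16, limma adjusted p = 2.52e-05). Of the chains of VLA-4, Itga4 fell (-0.72 and -0.85, limma adjusted p = 0.00787 and 0.00234), and Itgb1 was at 0.52 and 0.37 and did not pass (limma adjusted p = 0.207 and 0.354), while with the replicate block it did under both labels (0.000135 and 0.00217).

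**Figure D3:**
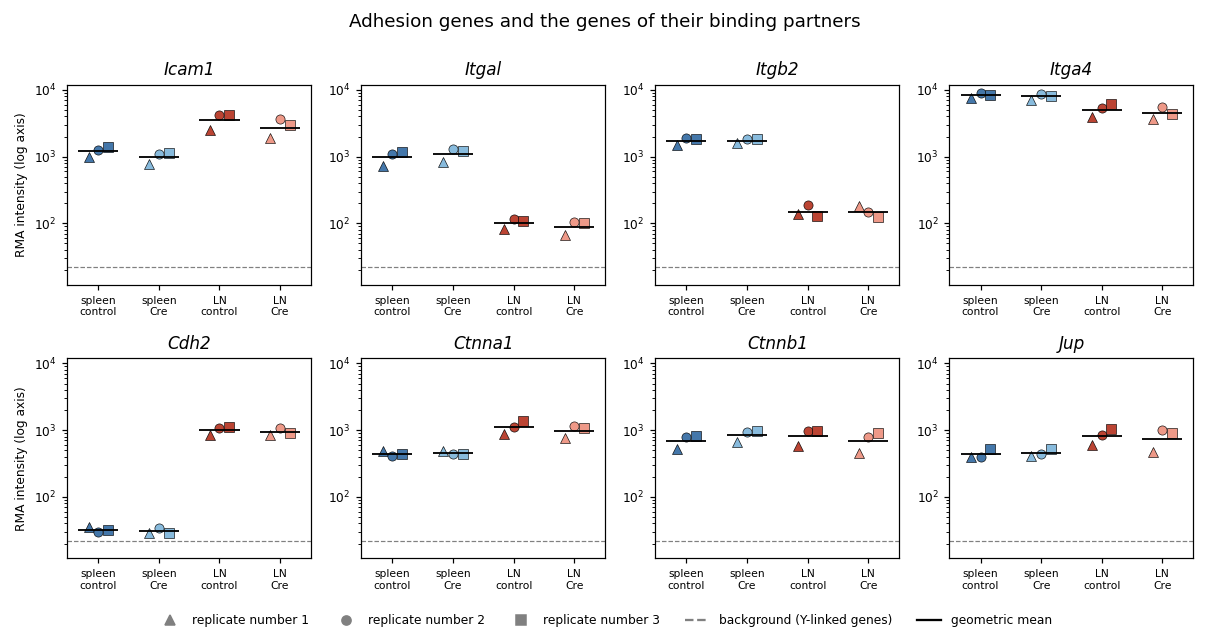
Intensity (log axis) on the 12 arrays of Icam1 and Cdh2 beside genes of their binding partners (LN, lymph node). Itga4, a chain of the VCAM-1 receptor VLA-4, is shown as well. Symbols give the replicate number, black lines the geometric mean of 3 arrays and the dashed line the background of 22.2. Icam1 is higher in lymph node where Itgal and Itgb2 are lower, and Ctnna1 is higher there while Ctnnb1 overlaps between tissues.

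Alcam was lower in lymph node. On spleen arrays it gave 542, 550 and 656 under control labels and 648, 723 and 659 under Cre labels. On lymph node arrays it read 477, 470 and 517 under control labels and 419, 415 and 485 under Cre labels. The lymph node arrays lay below the spleen arrays under both labels. The difference was -0.25 under control labels (SE 0.14, limma adjusted p = 0.246), and Alcam fell by 0.62 under Cre labels (SE 0.14, limma adjusted p = 0.00355). Whether these differ is the interaction given with the genotype labels. Cd6, the T cell receptor of ALCAM, was at 0.11 and did not pass under control labels, and rose by 0.43 under Cre labels (limma adjusted p = 0.705 and 0.0437), with the T cell markers at the levels given above.

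Of 25 measured immunoglobulin-type and other leukocyte adhesion genes, Icam1, Vcam1 and Alcam included, 9 rose and 5 fell under control labels (56.0% called, against 26.1% of all genes). Under Cre labels 10 rose and 7 fell (68.0%, against 28.3%), and the medians were 0.11 and 0.20. L1cam, an adhesion molecule best known from axons, rose by 1.30 and 1.53, from 66.2 to 84.7 in spleen to 132 to 296 in lymph node. Epcam rose by 1.04 and 1.27, and Cd2, a T and NK cell receptor, by 1.01 and 0.94. Pecam1, which joins endothelial cells and is found on leukocytes, fell (-2.67 and -3.18, SE 0.18, limma adjusted p = 7.64e-08 and 1.64e-08). Cd44, the hyaluronan receptor, fell (-1.60 and -1.40), and Cd99l2 too (-0.81 and -0.61). Over all 7 lists, 176 genes in all, 167 besides Cdh2 and F11r were measured. Of these, 39 rose and 19 fell under control labels (34.7% called, against 26.1% of all genes) and 44 rose and 24 fell under Cre labels (40.7%, against 28.3%). The same direction was called under both labels for 54. With array weights the control count of 58 became 92. The share of all genes called under both labels, or with array weights, is not given here. The 54 and the 92 therefore do not set the lists apart from other genes.

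**Figure D4:**
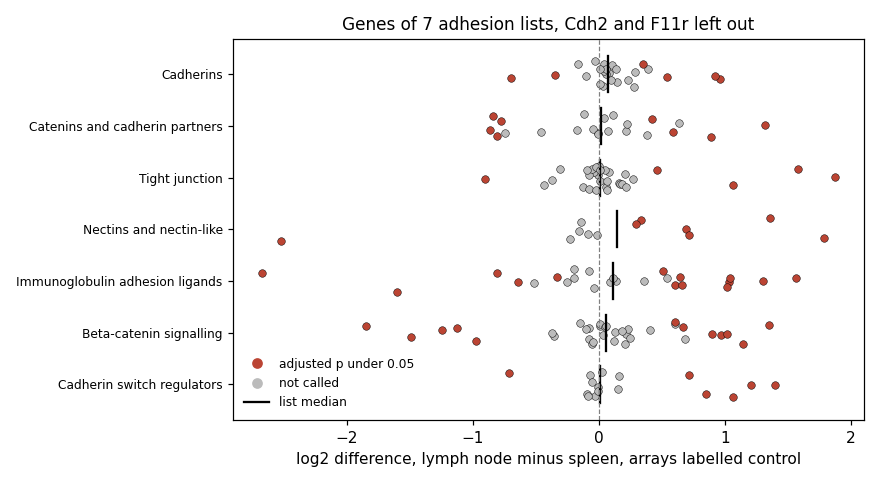
Log2 difference of lymph node minus spleen on the arrays labelled control for each measured gene of 7 adhesion lists, without Cdh2 and F11r; red points have a limma adjusted p under 0.05, grey points do not, and black lines are list medians. The medians lie between 0.01 and 0.14, and called genes stand on both sides of 0 in every list.

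Cells of skin and of vessels carry several of these genes, so their markers were read on the same arrays. Of 11 keratinocyte markers, 3 rose under control labels and 5 under Cre labels, where 12.9% and 13.1% of all genes rose. Their summed intensity was 540 to 571 and 512 to 571 in spleen, and 712 to 762 and 731 to 922 in lymph node. None was at background on all arrays, but 85.8% to 90.3% of all genes exceeded that level on each array. Krt5, Dsg3 and Dsc3 stayed below 56.3, the 95th percentile of the olfactory receptor means, on every array. Perp ran from 37.5 to 46.6 in spleen and from 94.4 to 205 in lymph node. Krt14 ran from 27.9 to 40.0 and from 44.6 to 57.8, and Lgals7 from 58.9 to 80.2 and from 112 to 159. These were the 3 that rose under control labels. Krt5, a further keratin, ran from 30.3 to 38.1 and from 30.9 to 49.2 and did not pass there (limma adjusted p = 0.796). Of 6 measured Langerhans cell markers, 3 rose and 2 fell under both labels, where 13.2% and 15.2% of all genes fell. The 3 that rose under control labels were Cldn1, Epcam and Cdh1. They are adhesion genes described above, so they give no separate reading of such cells. The sums of these markers were 683 to 1015 and 752 to 1032 in spleen and 953 to 1386 and 1266 to 1441 in lymph node. They include Cldn1, with medians of 243 in spleen and 889 in lymph node. Langerin, Cd207, was among those that fell, from 245 to 528 in spleen to 124 to 219 in lymph node. Cd209e fell under control labels, with medians of 53.3 in spleen and 34.9 in lymph node. Trem2 did not pass there (limma adjusted p = 0.680). The part of such cells in the rise of F11r, Cldn1 and Epcam was not tested.

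Of 17 stromal and endothelial markers, 1 rose and 2 fell under control labels, where 12.9% of all genes rose and 13.2% fell. Under Cre labels 2 rose and 2 fell, where 13.1% of all genes rose and 15.2% fell. The sums of these markers were 1338 to 1439 and 1370 to 1501 in spleen and 947 to 1183 and 1054 to 1108 in lymph node. Cdh5, the defining cadherin of endothelium, ran from 43.1 to 54.6 in spleen and from 39.5 to 46.0 in lymph node, and Lum was at background in both tissues. Dcn, a fibroblast gene at background in spleen, ran from 23.8 to 81.8 in lymph node without passing (limma adjusted p = 0.342 under control labels). Of 14 macrophage markers, 0 rose under either label by limma, and 2 and 3 fell, with sums of 2399 to 2675 over all spleen arrays and 967 to 1016 over all lymph node arrays. The lower sums in lymph node came mainly from Cd68 (medians of 1446 in spleen and 243 in lymph node) and Timd4 (293 and 86.8) among the macrophage markers and from Pecam1 (381 and 53.5) and Vwf (171 and 96.3) among the stromal and endothelial ones. C1qa (61.8 and 67.6) and Mertk (32.2 and 33.1) had like medians in both, and Cxcl13, the 1 stromal marker that rose under control labels, had 33.4 and 84.3. The part of such cells in the values of Cdh2, Icam1 and Vcam1 was not tested.

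The arrays numbered 1 carried part of the spread within groups. Icam1, Ctnnb1 and Alcam were lower on the array numbered 1 than the geometric mean of the other 2 in all 4 groups, 3 of 9 genes, and Cadm1 and Vcam1, 2 of 9, higher in all 4, against 18.5% and 31.2% of all genes. F11r on that array was 0.414 and 0.395 of that mean in lymph node, and 1.08 and 1.05 in spleen. Only 0.266% and 0.146% of all genes had as low a value there in lymph node. For Cadm1 the lymph node ratios were 1.49 and 1.42. On the same arrays Cd3g, a T cell receptor chain, read 445 (control) and 513 (Cre), against 176 to 241 and 116 to 235 on the other lymph node arrays. Cd3d read 257 and 332, against 124 to 155 and 98.7 to 195. Cd3e did not stand out there, at 196 and 175, against 173 to 196 and 161 to 210. The part of T cell RNA in these values was not tested.

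Between the genotype labels, none of the 9 genes was called. In spleen limma called 0 of 9, with 1 at an unadjusted p under 0.05, and in lymph node 0 of 9, with 0. Over all genes 0% were called in either tissue, with 1.79% and 2.01% at that unadjusted level. With the replicate block 0 were called as well. The array number limits this comparison. So do the labels, because Cd40 was 1.84 and 2.18 times control on the Cre arrays numbered 3 in spleen and lymph node. Intervals are therefore for the labels and do not bound an effect of Cd40 loss. The 95% interval of the difference for Cdh2 was -0.41 to 0.23 in spleen and -0.43 to 0.21 in lymph node, and for F11r -1.01 to 0.58 and -0.97 to 0.62. Cdh2 was at -0.09 in spleen and -0.11 in lymph node, F11r at -0.21 and -0.18, and Tjp1, near background, is not described further.

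Icam1 was lower on the array labelled Cre in all 6 same-numbered pairs. The share of all genes with such a pattern was not counted. The ratios of Cre to control were 0.810, 0.889 and 0.818 in spleen, and 0.760, 0.875 and 0.691 for the lymph node pairs. The groups overlapped, and the differences of -0.25 (SE 0.27, 95% interval -0.84 to 0.33) and -0.37 (SE 0.27, -0.95 to 0.21) did not pass (limma adjusted p = 1 in both, 0.984 and 0.665 with the replicate block). Cd40 itself was higher on the array labelled Cre in the pair numbered 3, and a link of Icam1 to Cd40 was not tested.

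Vcam1 was at -0.37 in spleen (SE 0.16, 95% interval -0.71 to -0.03) and was the 1 gene below the unadjusted level there, with a limma adjusted p = 1. Its ratios were 0.793, 0.621 and 0.947, and in lymph node it was at -0.11. Cadm1 was at -0.12 in spleen, where the 3 Cre arrays lay just below the 3 control arrays, and at 0.16 in lymph node, where the labels overlapped. Of the 9 genes it alone had spleen labels that did not overlap, and 0 did so in lymph node. Over all genes 2.68% lay wholly higher and 4.96% wholly lower under Cre labels in spleen, and 2.01% and 2.7% in lymph node. Cldn1 was at -0.07 and 0.31 (SE 0.20), with ratios of 1.76, 1.15 and 0.936 in lymph node.

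Ctnnb1 and Alcam had ratios of Cre to control above 1 in spleen and below 1 in lymph node in all pairs. How many of all genes share this pattern was not counted. For Ctnnb1 they were 1.29, 1.202 and 1.18 for the spleen pairs and 0.789, 0.822 and 0.942 for the lymph node pairs. For Alcam the spleen ratios were 1.19, 1.32 and 1.004 and the lymph node ratios 0.878, 0.882 and 0.938. The test of the difference between tissues did not pass for either (limma adjusted p = 1, with -0.53, SE 0.41, for Ctnnb1 and -0.37, SE 0.20, for Alcam), nor for any of the 9 genes, of which 0 had an unadjusted p under 0.05. Over all genes 0% were called, with 1.64% at that unadjusted level. None of the 167 list genes was called between labels by limma, with 3 at an unadjusted p under 0.05 in spleen and 1 in lymph node.

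**Figure D5:**
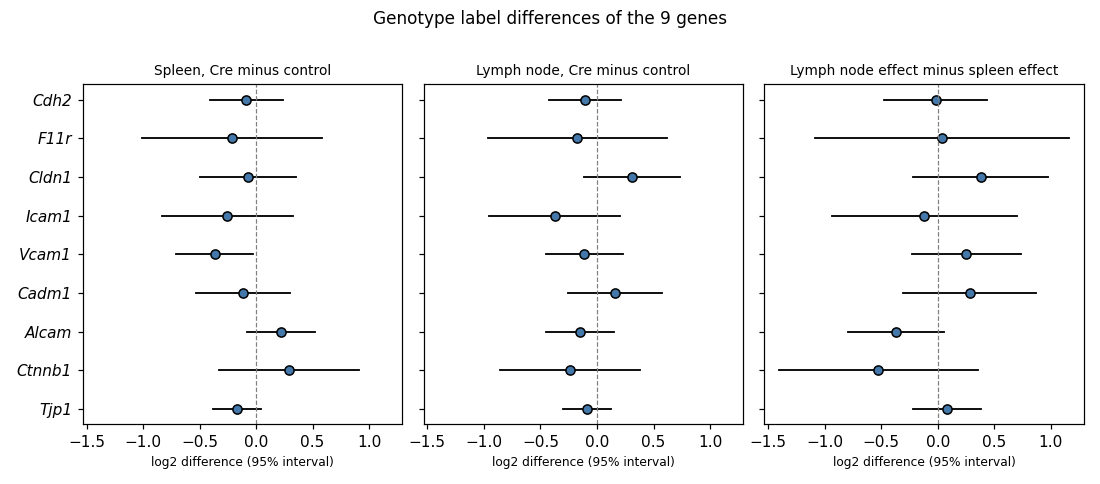
Log2 differences between arrays labelled Cre and control in spleen (left) and lymph node (middle), and the lymph node difference minus the spleen difference (right), for the 9 genes; points are limma estimates and lines 95% intervals, not adjusted for the number of genes. All intervals include 0 except that of Vcam1 in spleen, from -0.71 to -0.03.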

How the data were processed

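Per the submitters' processing notes, the arrays were summarised with RMA in Affymetrix Expression Console, without versions. The authors deposited 1 intensity per probe set and array on the linear scale (8.23 to 20398), and log2 was taken here. Amplification was from very small RNA amounts with the WT Pico kit, per the labels' protocols. Of 28853 probe sets, 21789 carried 1 symbol in GEO's platform annotation (1621 carried several and 5443 were not listed). The brightest probe set of each gene was kept, leaving 19938 genes. RefSeq names came by Entrez number for 21698 probe sets.

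Limma 3.58.1 under R 4.3.3 fitted 4 group means per gene over 12 arrays, eBayes with a trend, two-sided tests and Benjamini-Hochberg adjustment over all genes in each comparison, and called at an adjusted p under 0.05. The fit was also run on simulated data in which arrays varied independently. That run gives no error rate for arrays that share variation, as those described below. The number of arrays limits the precision. Same-numbered arrays of different groups correlated at 0.293 to 0.728 in their deviations from group means (median 0.434), different numbers at a median of -0.449. All negative values involved an array numbered 1. Numbers 2 and 3 of different groups correlated with each other at 0.177 to 0.557, a range that overlaps that of same-numbered arrays. The correlations thus set the arrays numbered 1 apart and do not show that 2 pairs with 2 or 3 with 3. The labels' numbers were taken to pair arrays, and same-numbered ratios rest on that choice. The block result is given where it changes a call.

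The members and lists were chosen with earlier results of these data known. Named besides the members were, per list, up to 3 genes with the largest rise and 3 with the largest fall called under both labels, fixed binding partners, and the 5 genes nearest to Cdh2 and to F11r. The comparison with olfactory receptors and the motif search were not part of the fixed design. Alternatives were a replicate block, quantile normalization, median centring, a filter on dim genes, array weights, no trend, the mean of probe sets, an offset of 16, and leaving out each array or all arrays numbered 1. Plots used matplotlib 3.10.9.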

Additional observations from a re-analysis of the deposited data

Results flagged for a closer look

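Ctnnb1 was higher on the array labelled Cre in all 3 same-numbered spleen pairs and lower in all 3 lymph node pairs. The lymph node difference minus the spleen difference was -0.53 in log2 (95% interval -1.41 to 0.35, limma adjusted p = 1, or 0.839 with the replicate block). Alcam had the same pattern, with a difference of -0.37 (95% interval -0.80 to 0.05, limma adjusted p = 1, or 0.839 with the block). Neither passed the test of the difference itself, and how many of all genes share the pattern was not counted.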

How the results depend on the processing

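Leaving out any 1 array, limma called 4 of the 7 tested genes between tissues under control labels and 5 under Cre labels, as with all 12, and 0 of the 9 between genotype labels. The adhesion list count under control labels, 58, became 92 with array weights and ran from 47 to 64 without single arrays. The cause was not tested. Under Cre labels it was 68, ran from 64 to 86 over the 9 other alternatives and from 53 to 70 without single arrays. Shares of all genes with array weights or without single arrays are not given here, so a change in these counts is not particular to the lists. Array weights also called Alcam (-0.26) and the background-level Tjp1 (-0.23) under control labels. The replicate block changed the call of Ctnnb1 under Cre labels (adjusted p = 0.0253) and of no other of the 9 genes. Cdh2 was at 4.41 and 4.37 with the offset, and at 5.16 under control labels without the arrays numbered 1.

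Uncalled differences near 0 changed sign in 31 instances over 11 results, 0 of them called. Between tissues under Cre labels Tjp1 became 0.0334 with array weights and 0.083 without the arrays numbered 1 (-0.072 to 0.076 without single arrays). Between labels in spleen Cdh2 became 0.020 without the arrays numbered 1, and Cldn1 ran from -0.21 to 0.064 without single arrays. In lymph node Tjp1 became 0.077 with array weights and 0.070 without the arrays numbered 1, and Vcam1 0.028 with array weights; without single arrays Cadm1 ran from -0.034 to 0.35, Ctnnb1 from -0.49 to 0.066 and F11r from -0.60 to 0.27. The difference between tissues became -0.00353 for F11r with array weights and -0.00374 with the offset. Without single arrays it ran from -0.39 to 0.48 for F11r, from -0.14 to 0.056 for Cdh2 and from -0.38 to 0.15 for Icam1. Signals near background, as of Cdh2 in spleen and Tjp1, limit what a fold can mean.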
